A study of Mus musculus with 12 samples.

Results

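Semaphorins, plexins and neuropilins were examined in spinal motor neurons (SMNs) and in the posterior horn of the mouse spinal cord. The genes were taken by symbol: every row of the arrays whose annotation gave exactly 1 symbol and that symbol was a semaphorin, a plexin, Plxdc1, Plxdc2, Nrp1 or Nrp2. At the gene level this gave 32 genes in 36 rows of 20261 genes in 24343 rows, namely 20 semaphorins, 9 plexins, 2 plexin domain containing genes and 1 neuropilin. At the exon level it gave 33 genes with 1025 probesets of 22345 genes with 319246 probesets. The row of Nrp2 at the gene level and 28 probesets of the exon-level table were annotated to both Nrp2 and Pard3b, a cell polarity gene. Nrp2 was therefore not measured at the gene level and was left with 1 probeset. A further row each of Sema6a and Sema6d was shared with another gene and was not used.

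The arrays compared 2 groups of 3, both from the cervical cord of untreated adult male C57Bl/6 mice (C57BL/6J in the study's methods) with no altered gene. SMNs were large cells of the anterior horn, cut by laser one at a time from stained frozen sections, and the labels call them anterior horn cells. The other group, called posterior column in the labels and posterior horn here after the study's own wording, was cut as areas of dorsal horn tissue, so it holds neurons together with glia and vessels. Cells of several mice went into each group, and the labels do not say whether the arrays of a group come from separate mice. The p-values measure the spread between these arrays, which may be partly technical. RNA was amplified linearly and hybridized to Affymetrix exon arrays for mouse, on which a gene is covered by several probesets, short groups of probes that each target a stretch of an exon. Each array was deposited at the gene level, as linear intensities, and at the exon level, on a log2 scale.

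Semaphorins are guidance ligands that share a sema domain. Those of class 3 are secreted, those of classes 4, 5 and 6 span the membrane, and Sema7a is held in it by a lipid anchor. Plexins are their receptors. Most class 3 ligands bind a neuropilin, which pairs with an A-type plexin to signal, whereas the membrane-bound classes mostly bind plexins directly. In the developing cord these signals steer and sort motor and sensory axons, and many members stay expressed in the adult. Plxdc1 and Plxdc2 are transmembrane proteins with a plexin-like extracellular region but are not plexins themselves.

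Of the 32 genes, 9 were higher and 10 were lower in SMNs at an adjusted p under 0.05 (limma, two-sided, Benjamini-Hochberg adjustment over all 24343 rows with 1 symbol, each gene represented by its brightest row). Among all 20261 genes, 15.4% were higher and 13.7% were lower by the same rule. In either direction, 19 of 32 genes passed, or 59.4%, beside 29.1% of all genes, and the other 13 did not pass. The distance to all genes depended on the dim rows. With the dimmest 25% left out, 20 of 31 passed beside 42.7% of all genes that remained. With the dimmest 50% left out, it was 18 of 24 beside 57.8%. Before adjustment 21 of the 32 were under 0.05, beside 8838 of the 20261 genes. In all 19 genes that passed, the SMN arrays lay entirely on 1 side of the posterior horn arrays. With those that did not pass, this held for 23 of the 32 genes. How many of all genes were separated in this way was not counted, so these counts say nothing particular about the family. The median log2 fold change, SMN minus posterior horn on the log2(intensity + 1) scale, was -0.43 over the 32 genes and 0.03 over all genes. Changes in both directions thus occurred within the family, and semaphorins (5 higher, 6 lower of 20) and plexins (2 higher, 4 lower of 9) each had both.

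**Figure D1:**
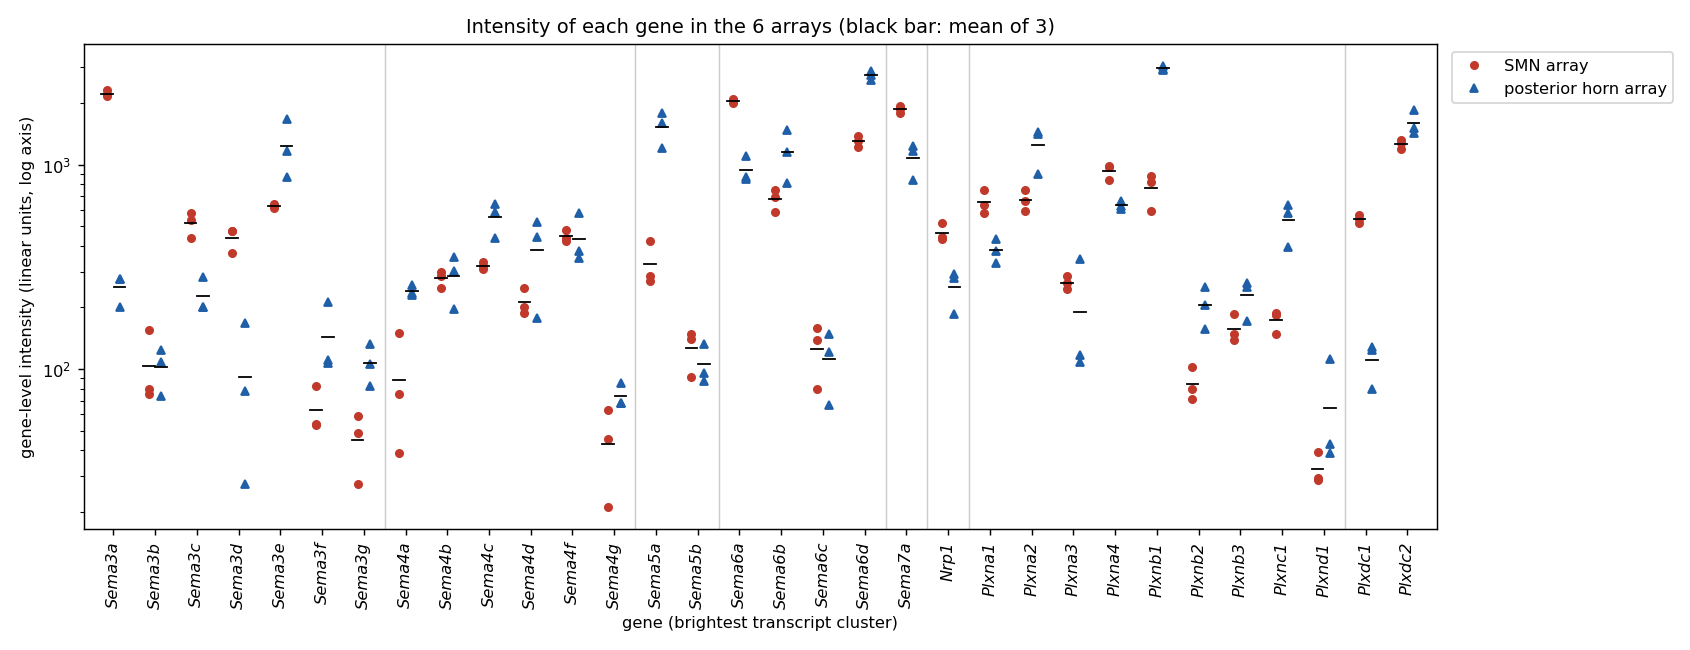
Gene-level intensity (vertical log axis, linear units) of each of the 32 genes in the 3 SMN arrays (circles) and the 3 posterior horn arrays (triangles), with a black bar at the mean of each 3. Grey lines separate the classes. Sema3a and Plxdc1 stand clearly higher in the SMN arrays, and Sema5a, Plxnb1 and Plxnc1 clearly higher in the posterior horn arrays.

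Markers of the cell types that the samples could hold were compared between the same groups. All 5 motor neuron markers were higher in SMNs, with summed intensities of 16720 to 17627 against 137 to 269, and 4 of 5 dorsal horn neuron markers were lower (560 to 654 against 8445 to 9202). All 7 astrocyte markers measured were lower, with sums of 6028 to 6488 in SMN arrays and 17327 to 18135 in posterior horn arrays. All 7 oligodendrocyte markers (12378 to 13300 against 24045 to 25508), both of the oligodendrocyte precursors (400 to 588 against 1504 to 1710) and all 6 endothelial markers (666 to 771 against 2189 to 3131) were lower too. So were 5 of 6 microglial markers (1581 to 1599 against 3894 to 4132). Of the 4 meningeal markers (599 to 749 against 837 to 959) only Col1a2 was lower. The other 3 did not pass and had log2 fold changes above 0, from 0.13 for Col1a1 to 0.74 for Lum. No marker was at 0 in either group, and glial signal was present in the SMN arrays too, as with Mbp at 3474 to 3631. SMN values are thus those of the dissected samples, not of motor neurons alone. The median log2 fold change was -4.69 for dorsal horn neuron, -1.52 for astrocyte, -0.91 for oligodendrocyte and -1.40 for oligodendrocyte precursor markers. It was -1.44 for microglial, -1.80 for endothelial and 0.17 for meningeal markers. The 10 genes of the family that were lower had values from -0.77 to -2.24. The part of these cells in the falls was not tested. Fewer cells of a type and less RNA per cell cannot be told apart in such samples. Within groups the arrays correlated at 0.936 to 0.961 and between groups at 0.880 to 0.888 over all rows with 1 symbol. The median gene-level intensity of an array over all 238609 rows, unnamed ones included, was 32.9 to 35.2.

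The genes of class 3 included the steepest rise of the family, and 4 of them follow each other on chromosome 5. In the RefSeq annotation of the build GRCm38.p6 the order is Sema3d, Sema3a, Sema3e and Sema3c. No protein-coding gene is annotated between Sema3d and Sema3a, 3 lie between Sema3a and Sema3e, and 15 between Sema3e and Sema3c. Sema3d, Sema3a and Sema3c were higher in SMNs and Sema3e was lower. Because these neighbours did not move the same way, the 250 bases before each annotated start are shown, all on the plus strand. They are chr5:12382916-12383165 for Sema3d, chr5:13396534-13396783 for Sema3a, chr5:14025026-14025275 for Sema3e and chr5:17574566-17574815 for Sema3c, with each CG pair in capitals.
Sema3d: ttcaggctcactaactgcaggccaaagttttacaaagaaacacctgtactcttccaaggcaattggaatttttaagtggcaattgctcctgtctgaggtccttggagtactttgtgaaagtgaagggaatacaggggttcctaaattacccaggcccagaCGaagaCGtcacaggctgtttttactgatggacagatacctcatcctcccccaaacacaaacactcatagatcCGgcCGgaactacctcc
Sema3a: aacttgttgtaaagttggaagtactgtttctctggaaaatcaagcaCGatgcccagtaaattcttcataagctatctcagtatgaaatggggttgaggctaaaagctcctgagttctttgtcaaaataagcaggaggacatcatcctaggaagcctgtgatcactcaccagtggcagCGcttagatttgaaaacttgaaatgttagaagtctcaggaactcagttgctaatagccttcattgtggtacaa
Sema3e: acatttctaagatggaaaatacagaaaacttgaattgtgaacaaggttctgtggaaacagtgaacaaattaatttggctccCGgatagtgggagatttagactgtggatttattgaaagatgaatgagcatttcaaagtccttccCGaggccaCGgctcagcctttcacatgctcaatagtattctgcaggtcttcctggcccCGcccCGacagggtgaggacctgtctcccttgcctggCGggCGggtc
Sema3c: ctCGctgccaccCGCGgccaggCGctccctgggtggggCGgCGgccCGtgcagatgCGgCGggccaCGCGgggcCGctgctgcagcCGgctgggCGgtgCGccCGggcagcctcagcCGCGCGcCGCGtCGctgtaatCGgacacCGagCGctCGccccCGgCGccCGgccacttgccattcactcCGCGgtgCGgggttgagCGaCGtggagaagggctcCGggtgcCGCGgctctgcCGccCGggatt
The CG pair, which reads the same on both strands and does not overlap itself, occurred 39 times before Sema3c, 7 times before Sema3e, 4 times before Sema3d and 2 times before Sema3a. The median over 32851 such windows of 250 bases was 6. A count of at least 39 was found in 1.56% of the windows, of at least 7 in 46.3%, of at least 4 in 62.2% and of at least 2 in 81.2%. The bases before Sema3c were 78.4% G or C, those before Sema3e 48.0%, Sema3d 46.8% and Sema3a 40.8%. The 3 genes that rose thus had both the most and the fewest CG pairs of the 4. The RefSeq table held a promoter for 25 of the 32 genes, and the arrays measured neither methylation nor binding of any factor at these bases.

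Sema3a encodes a secreted ligand that repels or collapses growing axons through Nrp1 and A-type plexins. The SMN arrays read 2312, 2204 and 2159 and the posterior horn arrays 276, 277 and 201 in linear intensity. The groups were far apart, with a log2 fold change of 3.16 ± 0.18 (SE, 3 against 3 arrays, adjusted p = 0.00048), or 8.92-fold. At the exon level 21 of its 24 probesets were higher in SMNs, with a median log2 fold change of 3.03.

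Sema3d, a secreted relative that also binds Nrp1, read 472, 369 and 472 in the SMN arrays and 168, 78.5 and 27.5 in the posterior horn arrays. The groups did not overlap, but the posterior horn arrays were widely scattered. The log2 fold change was accordingly loose at 2.59 ± 0.62 (adjusted p = 0.028), with an interval of 1.09 to 4.09. Its second, separate row also rose, by 1.14 ± 0.25 (adjusted p = 0.021). Sema3c, a ligand of both neuropilins known for its part in the outflow tract of the mouse heart, read 537, 440 and 580 against 281, 202 and 201. It was 2.29-fold higher (SE 0.21 on the log2 scale, adjusted p = 0.011), and each SMN array lay above each posterior horn array.

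Sema3e differs from the other class 3 ligands in that it can bind plexin D1 without a neuropilin. It read 641, 628 and 614 in the SMN arrays, which were close together, and 868, 1171 and 1678 in the posterior horn arrays, which were not. The log2 fold change was -0.93 ± 0.26 (adjusted p = 0.043). Sema3g, known in mice from the walls of blood vessels, read 48.6, 58.8 and 27.5 against 106, 133 and 82.6, all among the dimmer values of the family. It fell by 1.27 ± 0.33 on the log2 scale (adjusted p = 0.035).

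The remaining class 3 genes did not pass. Sema3f, which acts mainly through Nrp2, read 52.9, 53.7 and 82.4 in the SMN arrays and 110, 107 and 214 in the posterior horn arrays. There was no overlap between the groups, but the log2 fold change of -1.13 ± 0.33 had an adjusted p of 0.052. Sema3b had a log2 fold change of -0.03, with an interval of -0.87 to 0.81.

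Class 4 semaphorins, which span the membrane and are the main ligands of B-type plexins, had no member higher in SMNs, with 2 lower and 4 that did not pass. Sema4a, known also as a ligand on immune cells, read 75.6, 39.0 and 150 in the SMN arrays and 236, 230 and 257 in the posterior horn arrays. The SMN arrays were the scattered ones here, with a log2 fold change of -1.64 ± 0.46 (adjusted p = 0.045). Sema4c, a ligand of plexin B2, was lower by a smaller amount (log2 fold change -0.77, adjusted p = 0.031), with intensities of 308 to 334 against 436 to 640. Sema4d, the classical ligand of plexin B1, had a log2 fold change of -0.70 but posterior horn arrays from 179 to 522 that spanned all SMN arrays. The log2 fold changes were -0.88 for Sema4g, which was dim, 0.07 for Sema4f and 0.00 for Sema4b.

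Sema5a carries thrombospondin repeats beside its sema domain and binds plexins, among them plexin A and plexin B3. It had the largest fall of the 32 genes. The SMN arrays read 423, 269 and 285 and the posterior horn arrays 1796, 1209 and 1600. No SMN array came near a posterior horn array, and the log2 fold change was -2.24 ± 0.25 (adjusted p = 0.0030), or 4.74-fold. Its close relative Sema5b did not pass, at 0.26 with an interval of -0.37 to 0.90.

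In class 6, whose members bind A-type plexins directly, 1 gene was higher, 1 was lower and 2 did not pass. Sema6a, a ligand of plexins A2 and A4, read 2086, 2069 and 2007 in the SMN arrays and 850, 1107 and 869 in the posterior horn arrays. The SMN arrays nearly coincided, and the log2 fold change was 1.13 ± 0.16 (adjusted p = 0.0062). Sema6d, a ligand of plexin A1, went the other way, at 1374, 1310 and 1216 against 2874, 2585 and 2748. Its log2 fold change was -1.07 ± 0.14 (adjusted p = 0.0049), so the groups were again well separated. Sema6b had SMN arrays of 589 to 751 below posterior horn arrays of 810 to 1481 but did not pass (log2 fold change -0.72, adjusted p = 0.084). Sema6c had a log2 fold change of 0.18, with an interval of -0.76 to 1.13.

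Sema7a, which signals through plexin C1 and through integrins containing the β1 chain, was higher in SMNs. It read 1940, 1787 and 1875 in the SMN arrays against 1171, 1229 and 841 in the posterior horn arrays. The log2 fold change was 0.81 ± 0.19 (adjusted p = 0.028), a modest shift with no overlap between the groups. Plxnc1, its plexin receptor, was lower at 189, 148 and 184 against 632, 578 and 394. That is a log2 fold change of -1.59 ± 0.23 (adjusted p = 0.0062), whereas Itgb1, the β1 integrin, was higher by 1.33 (adjusted p = 0.0024).

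Nrp1, the neuropilin that binds Sema3a, was higher in SMNs in its brighter row. The SMN arrays read 519, 442 and 435 and the posterior horn arrays 291, 185 and 278, without overlap. The log2 fold change was 0.91 ± 0.22 (adjusted p = 0.029). A second, dim row of Nrp1 had intensities of 8.73 to 28.8 in SMN arrays and 29.6 to 60.5 in posterior horn arrays, and a log2 fold change of -1.35 that did not pass (adjusted p = 0.082). The rows of this gene thus pointed in opposite directions. The lone Nrp2 probeset had a log2 fold change of -0.98 and did not pass.

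A-type plexins, which transmit class 3 signals for neuropilins and class 6 signals directly, had 2 genes higher, 1 lower and 1 that did not pass. Plxna1 read 755, 580 and 633 in the SMN arrays and 377, 433 and 330 in the posterior horn arrays. It was higher by 0.79 ± 0.18 on the log2 scale (adjusted p = 0.026), and the groups did not overlap. Plxna4, a partner of Nrp1 for Sema3a, was 0.56 higher (adjusted p = 0.037), at 844 to 988 against 607 to 667. Plxna2 was lower (log2 fold change -0.87, adjusted p = 0.040), with intensities of 595 to 755 against 899 to 1440. Plxna3, a partner of Nrp2 for Sema3f, had a log2 fold change of 0.69 that did not pass. A single posterior horn array at 345 lay above all SMN arrays, while the other two read 117 and 108.

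B-type plexins had no member higher in SMNs. Plxnb1, the receptor of Sema4d that activates RhoA, read 825, 593 and 879 in the SMN arrays and 2906, 2927 and 3037 in the posterior horn arrays. The posterior horn arrays were tightly grouped far above the SMN arrays, with a log2 fold change of -1.97 ± 0.19 (adjusted p = 0.0021), or 3.91-fold. Plxnb2, a receptor of several class 4 ligands, read 71.0, 80.2 and 103 against 207, 157 and 251. It fell by 1.26 ± 0.24 on the log2 scale (adjusted p = 0.014), with no overlap. Plxnb3, a receptor of Sema5a known from oligodendrocyte lineage cells, had a log2 fold change of -0.53 and did not pass. Plxnd1, the receptor of Sema3e, was dim in both groups and did not pass (-0.81, interval -1.83 to 0.21).

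Plxdc1 was first known from the vessels of tumours. It read 568, 518 and 539 in the SMN arrays and 124, 128 and 80.0 in the posterior horn arrays. It was higher by 2.31 ± 0.22 on the log2 scale (adjusted p = 0.0020), or 4.95-fold, with tight SMN arrays. Plxdc2 was bright in both groups, at 1194 to 1320 against 1421 to 1848, and did not pass (-0.33, adjusted p = 0.19). The smallest p that an exact permutation test can reach with 3 arrays in each group is 0.1. Groups that do not overlap always reach it, so it adds nothing to the lack of overlap.

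**Figure D2:**
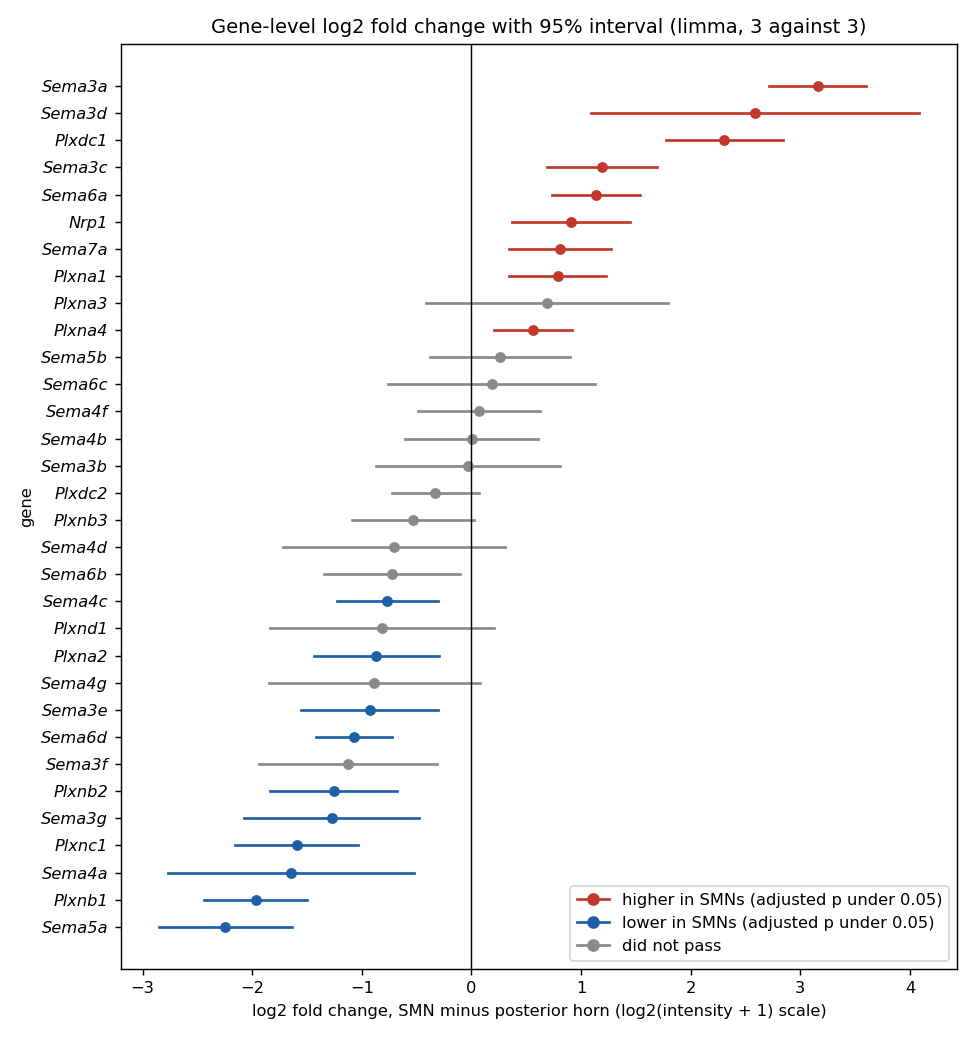
Log2 fold change (horizontal axis, SMN minus posterior horn on the log2(intensity + 1) scale) of each of the 32 genes, with lines for the 95% interval of the limma fit. Red marks the 9 genes higher and blue the 10 genes lower in SMNs, and grey the 13 that did not pass. Values run from 3.16 for Sema3a to -2.24 for Sema5a.

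The calls did not all rest equally on the processing. Of the 19 genes, Sema3a, Plxdc1 and Sema5a passed under all 19 alternatives tried, and 16 lost the call in at least 1. Sema3c, Sema6a and Sema6d lost the call only when the fit and its adjustment ran over all 238609 rows of the table. Plxnb1 lost it only when each gene was taken as the median of its exon-level probesets in each array. Plxnc1 lost it in each of these fits (adjusted p 0.073 over all rows and 0.072 with the exon-level median). Leaving out a single array left 8 to 15 genes of the family passed, beside 14.8% to 24.9% of all genes, and ended 11 of the calls in at least 1 such fit. Every fold change of those 11 genes kept its direction in these fits. Plxnb2 missed without SMN array 1 or 2 (highest adjusted p 0.054). Nrp1 (0.098) and Sema7a (0.090) missed without any single SMN array. Sema3d missed without any single SMN array or posterior horn array 2 (0.085), and its log2 fold change ran from 1.91 to 3.20. Sema3g missed without SMN array 1 or 3 or posterior horn array 1 or 2 (0.094). Plxna1 (0.087) and Plxna2 (0.12) kept the call only without posterior horn array 2, Sema3e (0.12) and Sema4c (0.098) only without posterior horn array 1, and Sema4a (0.12) only without SMN array 3. Plxna4 missed without any 1 array (0.058 to 0.12). With all arrays, Sema3e also missed with quantile normalization, Plxna2 with median centring and Sema4a with a floor of 16. Sema3d, Sema3e, Sema3g, Sema4a, Plxna2 and Nrp1 missed with the methods' t-test after adjustment. Nrp1 turned to -0.22 where the mean of its rows was taken, and Sema4c to 0.01 where the median of its probesets was taken in each array before the fit.

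**Figure D3:**
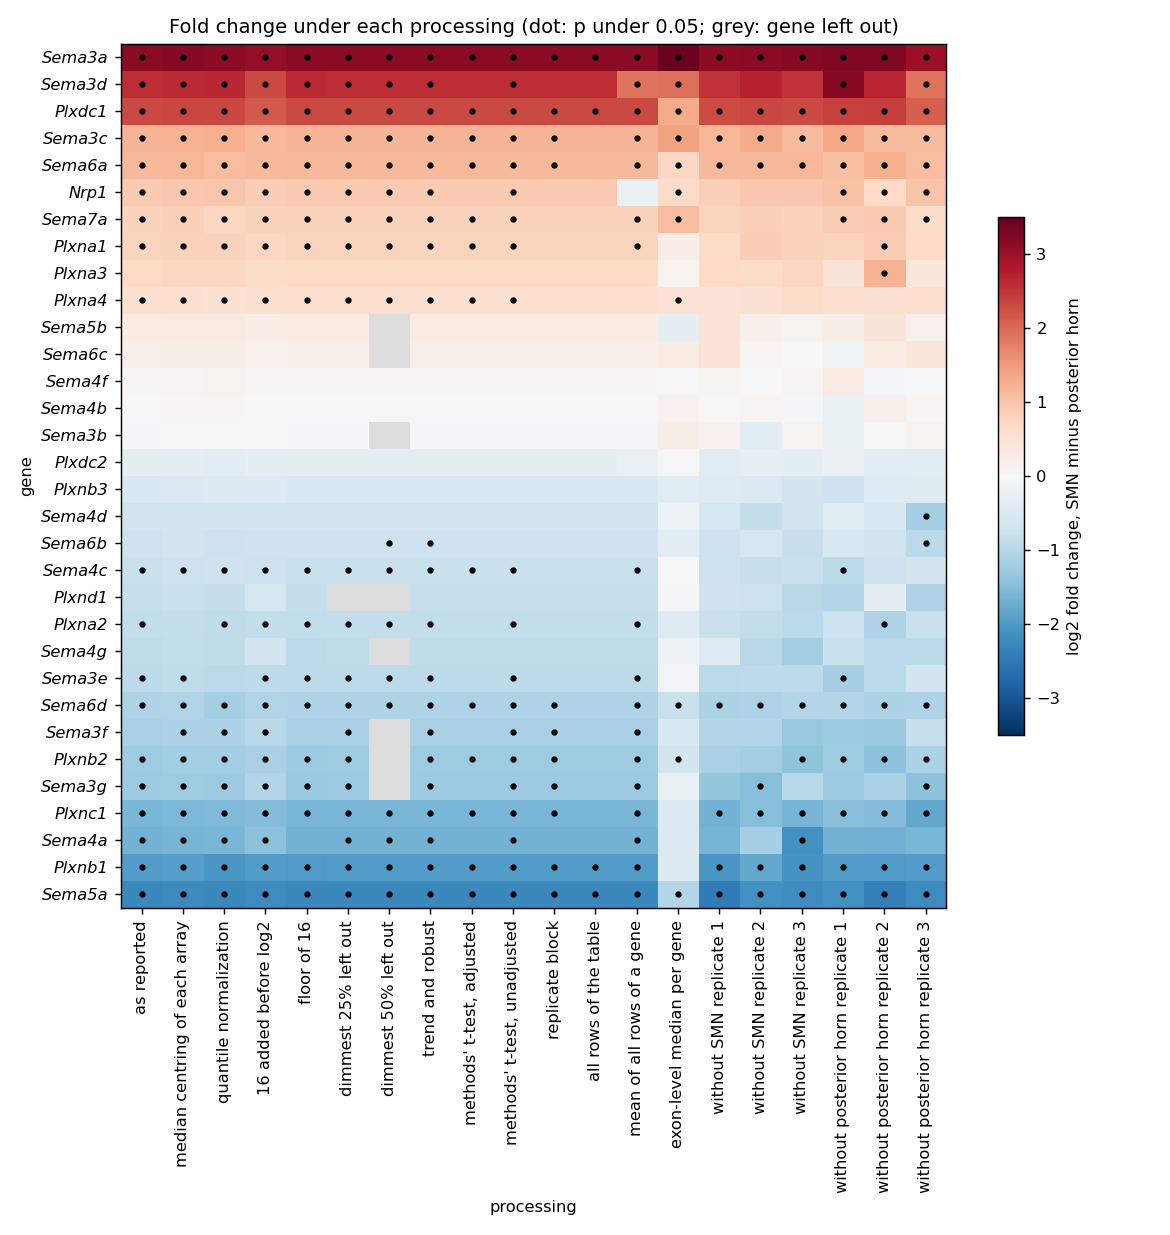
Log2 fold change of each gene (rows) under the values as reported and each alternative (columns), in colour from red (higher in SMNs) to blue (lower). A dot marks a p under 0.05, adjusted except in the column named unadjusted, and grey a gene left out by a filter on dim rows. Sema3a, Plxdc1 and Sema5a carry a dot in every column, and the genes in the middle rows in few or none.

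At the exon level each gene was seen by several probesets, between 15 for Sema7a and 51 for Plxnb3 besides the lone one of Nrp2. Over all 1025 probesets, 65 were higher and 47 were lower in SMNs, in 10 genes each. Among all probesets of the array 3.64% were higher and 3.27% were lower. The exon-level table was fitted by itself, with p-values adjusted over its 319246 probesets. The median of the fold changes of a gene's probesets had the sign of the gene-level change in 28 of 32 genes and in 18 of the 19 that passed, Sema4c being the exception. In 15 of those 19 at least 1 probeset passed in the same direction. Nrp1, Plxna1, Sema4c and Sema3g had none.

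Among the genes that rose, beside Sema3a, 7 of 27 probesets passed for Sema3d and 7 of 26 for Sema3c, all higher. Plxdc1 had 11 of 22 higher and Sema6a 13 of 30, whereas Sema7a had 2 of 15 and Plxna4 had 1 of 44. Among the genes that fell, Sema5a had 16 of 48 probesets lower, Sema6d 11 of 37, Plxnb1 6 of 47 and Plxnb2 4 of 50. Plxnc1 had 5 of 36 lower and 1 higher. Sema3e, Sema4a and Plxna2 had 1 lower each. Of the genes that did not pass at the gene level, Plxna3 had 1 probeset higher, Sema6b 1 lower and Sema4d 1 in each direction.

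**Figure D4:**
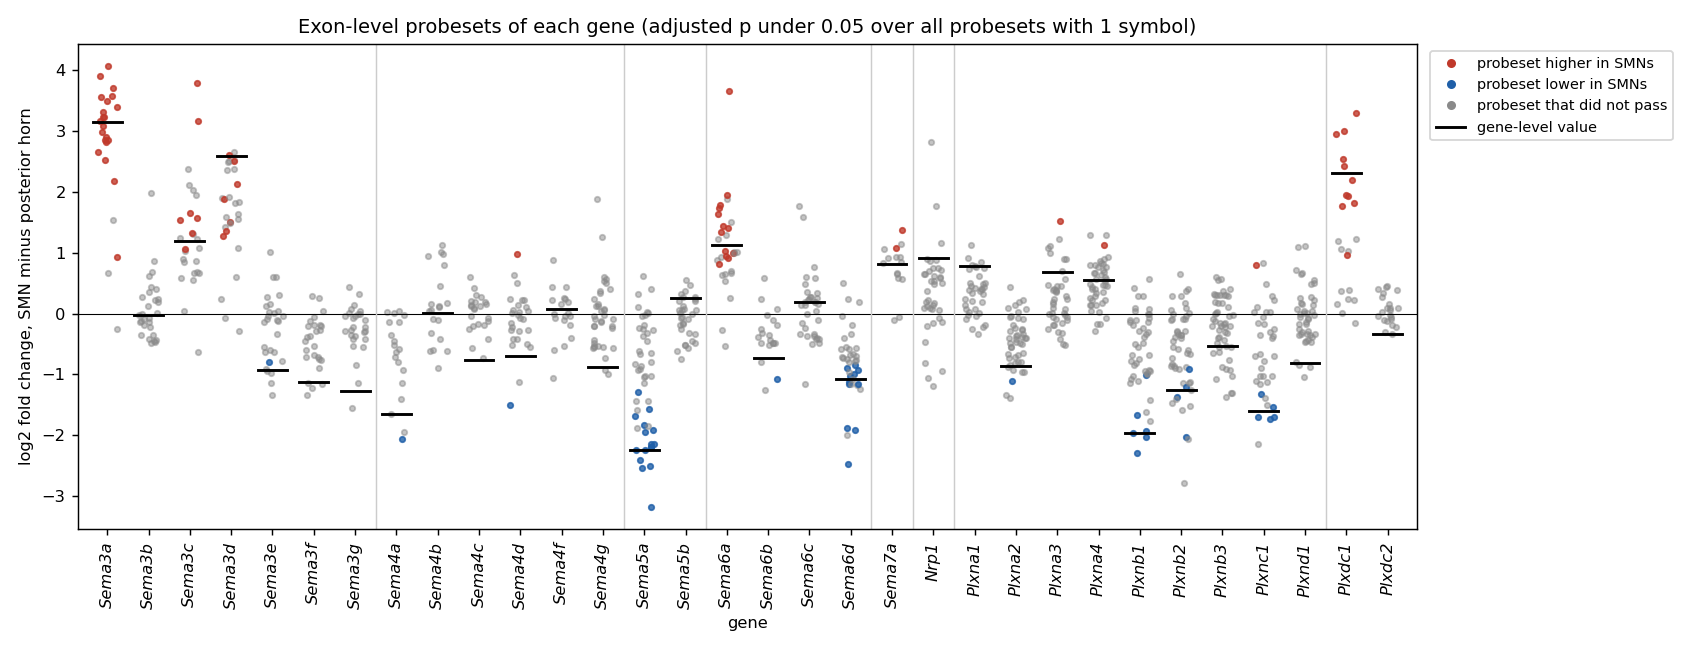
Log2 fold change (vertical axis, SMN minus posterior horn) of every exon-level probeset of the 32 genes, 1 point each, red where higher, blue where lower and grey where it did not pass, with a black line at the gene-level value. Most points of Sema3a lie above 2, while those of Sema5a run from -3.18 to 0.62.

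The spread of fold changes among the probesets of 1 gene was tested with limma diffSplice. It passed for 14 of 32 genes, beside 21.4% of the 21412 genes tested, which were not matched to the family in their number of probesets. The test cannot tell a change in exon use from probesets that respond weakly, and it assumes that the probesets of a gene vary alike. The adjusted p was 4.5e-13 for Plxdc1, whose probesets ran from -0.16 to 3.30, and 1.2e-10 for Sema3a, where they ran from -0.26 to 4.07. In Sema3a 3 probesets did not pass, and they were at -0.26, 0.67 and 1.55 while the median was 3.03. For Sema5a it was 1.4e-10, with 42 of 48 probesets below 0 and 25 of the 48 under an unadjusted p of 0.05. Sema6a (2.6e-07), Sema6d (3.3e-06), Plxnc1, Plxnb1, Nrp1, Plxnb2, Sema3c, Sema3e, Sema4b, Sema4d and Sema3b also passed. In Nrp1 the probesets reached up to 2.83, with 29 above 0 and 9 below.

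Of other genes of semaphorin signalling, 43 were listed, 41 were measured, and 7 were higher, 6 lower and 28 did not pass. That is 31.7%, near the 29.1% of all genes, and their median log2 fold change was 0.14. Dpysl5 and Dpysl3 belong to the collapsin response mediators, which carry Sema3a signals to the cytoskeleton. Dpysl5 was higher by 1.77 ± 0.25 (adjusted p = 0.0057) and Dpysl3 by 1.54 ± 0.21 (0.0050). Of the 5 measured mediators these 2 rose, and Crmp1, Dpysl2 and Dpysl4 did not pass. Nrcam, Rap1a, Rasa1 and Mical1 also rose.

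The largest fall among them was that of Chl1, an adhesion molecule that joins Nrp1 in the response to Sema3a, with a log2 fold change of -3.02 ± 0.18 (adjusted p = 0.00048). Its intensity averaged 181 ± 28.5 in SMN arrays and 1469 ± 86.3 in posterior horn arrays (SD, n = 3). Tyrobp (-1.87 ± 0.17, adjusted p = 0.0015) and Trem2 (-1.02 ± 0.26, 0.034), which form a microglial receptor complex reported to work with plexin A1, were lower as well. Arhgef12, which links B-type plexins to RhoA, fell by 0.96 (adjusted p = 0.013), and Rras and Limk2 also fell.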

How the data were processed

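Large anterior horn cells (SMNs) and areas of the posterior horn were laser-dissected from frozen cervical cord, RNA was amplified, and 6 arrays were hybridized. The 12 deposited samples are these 6 arrays at the gene and the exon level. The authors deposited gene-level values as linear intensity and exon-level values as log2, and per the labels made them in Affymetrix Expression Console 1.3.1.187. How the background was corrected, how probes were summarized and which genome build was used are not given here because the sources used name none. Array medians were alike (exon level 4.49 to 4.52), so the tables were used without further normalization. The precision is limited by the 3 arrays per group.

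Rows were named from the platform annotation. Rows with several symbols (1797) and unnamed rows (212469) of the 238609 gene-level rows were left out. All 36 rows of the family had an Entrez identifier in the RefSeq table of GRCm38.p6, and 0 symbols differed. Groups were compared with limma 3.58.1 in R 4.3.3 (lmFit, eBayes, two-sided, Benjamini-Hochberg) on log2(intensity + 1) and on the deposited log2 values, with called meaning an adjusted p under 0.05. A gene was represented by its brightest row over the 6 arrays. Probesets within a gene were compared with diffSplice, which on test data passed more false genes than the threshold allows when probesets vary unequally. The scripts were tested on simulated data. Low values were not filtered in the reported fits, so all 32 genes entered.

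Values per array were given for genes that passed with groups that did not overlap, up to the 8 largest rises and 8 largest falls, and for some others that were chosen after their values were seen. The members, the 43 signalling genes (Itga1 and Pak1 not measured) and the 44 cell type markers (42 measured) were chosen with earlier results of these data known. Alternatives were median centring, quantile normalization, 16 added before the log2, a floor of 16, leaving out the dimmest 25% or 50% of rows, a mean-variance trend with robust moderation, a replicate block, the methods' t-test, fit and adjustment over all rows, the mean of a gene's rows, the exon-level median and leaving out each array. RNA-seq libraries of the study were not used.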

Additional observations from a re-analysis of the deposited data

How the results depend on the processing

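Among the values recomputed for single genes, 481 kept their direction and their side of the threshold. Another 88 no longer passed, 13 newly passed and 17 changed sign. Of the 13, 8 were of Sema3f, which thus passed in 8 of its 18 alternatives. Among them were median centring, quantile normalization and the replicate block (limma, adjusted p 0.049, 0.047 and 0.033). Of the 19 genes called, 17 kept their direction under every alternative. The exceptions were Nrp1, at -0.22 with the mean of its rows, and Sema4c, at 0.0054 with the exon-level median, that is, the median of a gene's probesets in each array, fitted as 1 value per gene and not the median of their fold changes. With it, genes that were not called changed sign as well: Plxdc2 0.027, Sema3b 0.21, Sema4f -0.021 and Sema5b -0.31. With a single array left out, both signs occurred for Sema3b (-0.36 to 0.16), Sema4b (-0.24 to 0.18), Sema6c (-0.15 to 0.48) and Sema4f (-0.069 to 0.29), none of which were called.

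Of the genes called higher (9) and lower (10), the methods' t-test after adjustment left 6 lower (25.4% of all genes passed, against 29.1% as reported), the exon-level median 3 lower (16.8%), and the fit and adjustment over all 238609 rows 2 higher and 2 lower (3.39%). Without 1 array, 4 to 8 genes of the family were higher and 4 to 8 lower (14.8% to 24.9%). These counts include genes not called with all arrays, namely Plxna3 without posterior horn array 2, and Sema4d and Sema6b without posterior horn array 3. The signalling genes (7 higher, 6 lower) gave 12 higher without the dimmest 50% (57.8% of all genes passed in either direction). They gave 11 higher and 11 lower with trend and robust estimation (35.2%), and 11 higher and 10 lower with the unadjusted t-test (40.3%). Over all rows, 0 signalling genes were higher and 2 lower (3.39%), and without 1 array 3 to 6 and 2 to 7 (14.8% to 24.9%). Probesets (65 higher, 47 lower) gave 72 lower without the dimmest 50%, 73 lower with trend and robust estimation, and 42 higher and 23 lower in the fit over all 1195555 probesets. In either direction 6.91% of all probesets passed as reported, and 21.4%, 12.4% and 1.22% in these fits. Without 1 array, 27 to 56 were higher and 14 to 27 lower (1.85% to 4.15% of all probesets), and 10 to 15 genes passed between probesets (13.3% to 22.1% of all genes). The cause of these differences was not tested.

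Deviations of same-numbered arrays from their group mean correlated at 0.03, -0.0075 and 0.02. Those of differently numbered arrays correlated at -0.045 to 0.027. With 3 arrays per group these values cannot tell whether arrays of the same number share a mouse. With the replicate number as a block, 4 genes were higher and 7 lower beside 17.1% of all genes, and 19 probesets were higher and 14 lower beside 1.33% of all probesets. Dim genes such as Plxnd1, Sema4g and Sema3g were measured loosely, with standard errors of 0.42, 0.40 and 0.33 on the log2 scale. Some brighter genes were measured no better, with 0.62 for Sema3d, the largest of the 32, and 0.45 for Plxna3.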
